A study of Danio rerio with 20 samples.

Results

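The lowest exposure of a zebrafish study of HFPO-DA was compared with its untreated control across all genes. HFPO-DA (hexafluoropropylene oxide-dimer acid, also called GenX) is a fluorinated surfactant used in making fluoropolymers. The samples were chosen by their treatment labels and were the 4 pools at 0.5 mg/L (pools a to d) and the 3 untreated pools with values (control pools a to c), 7 of the 20 samples of the series. Of the other samples, 12 were pools at 1, 2 or 10 mg/L, and control pool d, which the submitters set aside as a technical outlier, was not analysed here. The control spread, and with it every p-value against control, therefore rests on the 3 control pools that were kept.

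Both groups were whole AB strain embryos collected at 72 hpf (hours post fertilization), with 10, 8, 10 and 10 embryos in pools a to d at 0.5 mg/L and 9, 10 and 10 embryos in control pools a to c. Exposed embryos were kept from the sphere stage onward in embryo water with pH-neutralized HFPO-DA, and control embryos were kept in embryo water alone. RNA was primed at the poly(A) tail and tagged with molecular identifiers, so each read stands for about 1 RNA molecule, and sequencing was shallow. A pool mixes all tissues of several embryos, and nothing in the labels says that the pools came from separate clutches, so p-values measure only the spread between these pools.

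At 72 hpf the zebrafish embryo has just hatched or is about to, and most organs already work. Cone and rod photoreceptors are laying down outer segments filled with opsins, and neurons of the brain and retina are forming synapses. Trunk muscle is fast-contracting and rich in sarcomere transcripts, while the liver and the yolk cell make the apolipoproteins that carry yolk lipid to the tissues.

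The 0.5 mg/L pools a to d held 173301, 143986, 204179 and 443076 reads on genes, and control pools a to c held 395594, 274326 and 345832. Pools a to c at 0.5 mg/L were thus shallower than every control pool, and pool d was deeper than every control pool. Control pool a stood apart from the other controls. With all 7 pools thinned to 143986 reads, its rank correlation over 1742 well-covered genes (those with a mean of at least 20 reads over the 7 pools) was 0.868 to 0.888 with the 0.5 mg/L pools, but 0.840 with control pool b and 0.858 with control pool c. Control pools b and c had a correlation of 0.879 with each other. Values without control pool a are therefore given beside many of the results, and values without another pool beside some, as where a list's median depended on it. Control pool a was singled out for its likeness to the exposed pools, so leaving it out can by itself enlarge differences. Adjusted p-values without it describe this dependence and are no support for a difference.

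No single gene passed the test. As lists, genes of photoreceptors, neurons, synapses and the vacuolar proton pump had medians below control at 0.5 mg/L, and genes of muscle, collagen, cytosolic ribosomes and lipid carriers had medians above it. Other lists lay as far from 0 or farther than some of these. On the lower side, p53 target (-0.34) and SWI/SNF genes (-0.34) lay below the neuronal list (-0.19). On the higher side, hormone (0.46), hatching enzyme (0.34) and respiratory complex I genes (0.17) lay above collagen (0.16). The mean level of a list separated the exposed pools from the control pools for opsins and neuronal genes. Among the 49 lists it also did so for retinoid cycle, glia and myelin, and heat shock genes. For the synaptic and proton pump lists and the 4 lists named first on the higher side the pools overlapped. Limma called 0 of 6933 genes (0.0%) at a Benjamini-Hochberg adjusted p under 0.1. edgeR and DESeq2, run on the recovered reads, also called 0. At an unadjusted p under 0.05, limma gave 430 genes (6.20%), edgeR 357 and DESeq2 128. In limma, 186 of these genes (2.68% of all tested) were higher and 244 (3.52%) were lower at 0.5 mg/L, and 56.0% of all tested genes had a fold change below 0. All 4 exposed pools lay above all 3 control pools in 163 genes (2.35%) and below them in 287 (4.14%). Of the well-covered genes, 166 (9.53%) had an unadjusted p under 0.05, with 66 higher (3.79%) and 100 lower (5.74%). Among them, pools did not overlap in 33 higher genes (1.89%) and 91 lower genes (5.22%). These shares over all tested and well-covered genes are the background for the list counts given below. The median log2 fold change was -0.06 over all tested genes and -0.04 over well-covered genes, and the quartiles of the well-covered genes were -0.23 and 0.13.

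Leaving out control pool a raised the number of genes called by limma to 46 (0.663%), of which 32 were higher and 14 lower, and 42 of the 46 were well covered (2.41% of well-covered genes). Without control pool b or control pool c it was 0. With 0.5 mg/L pool d left out, 1 gene, dpysl5b, was called. Apart from dpysl5b, every gene had an adjusted p of at least 0.786 in limma with all 7 pools, so the differences given below are described and did not pass the test.

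**Figure D1:**
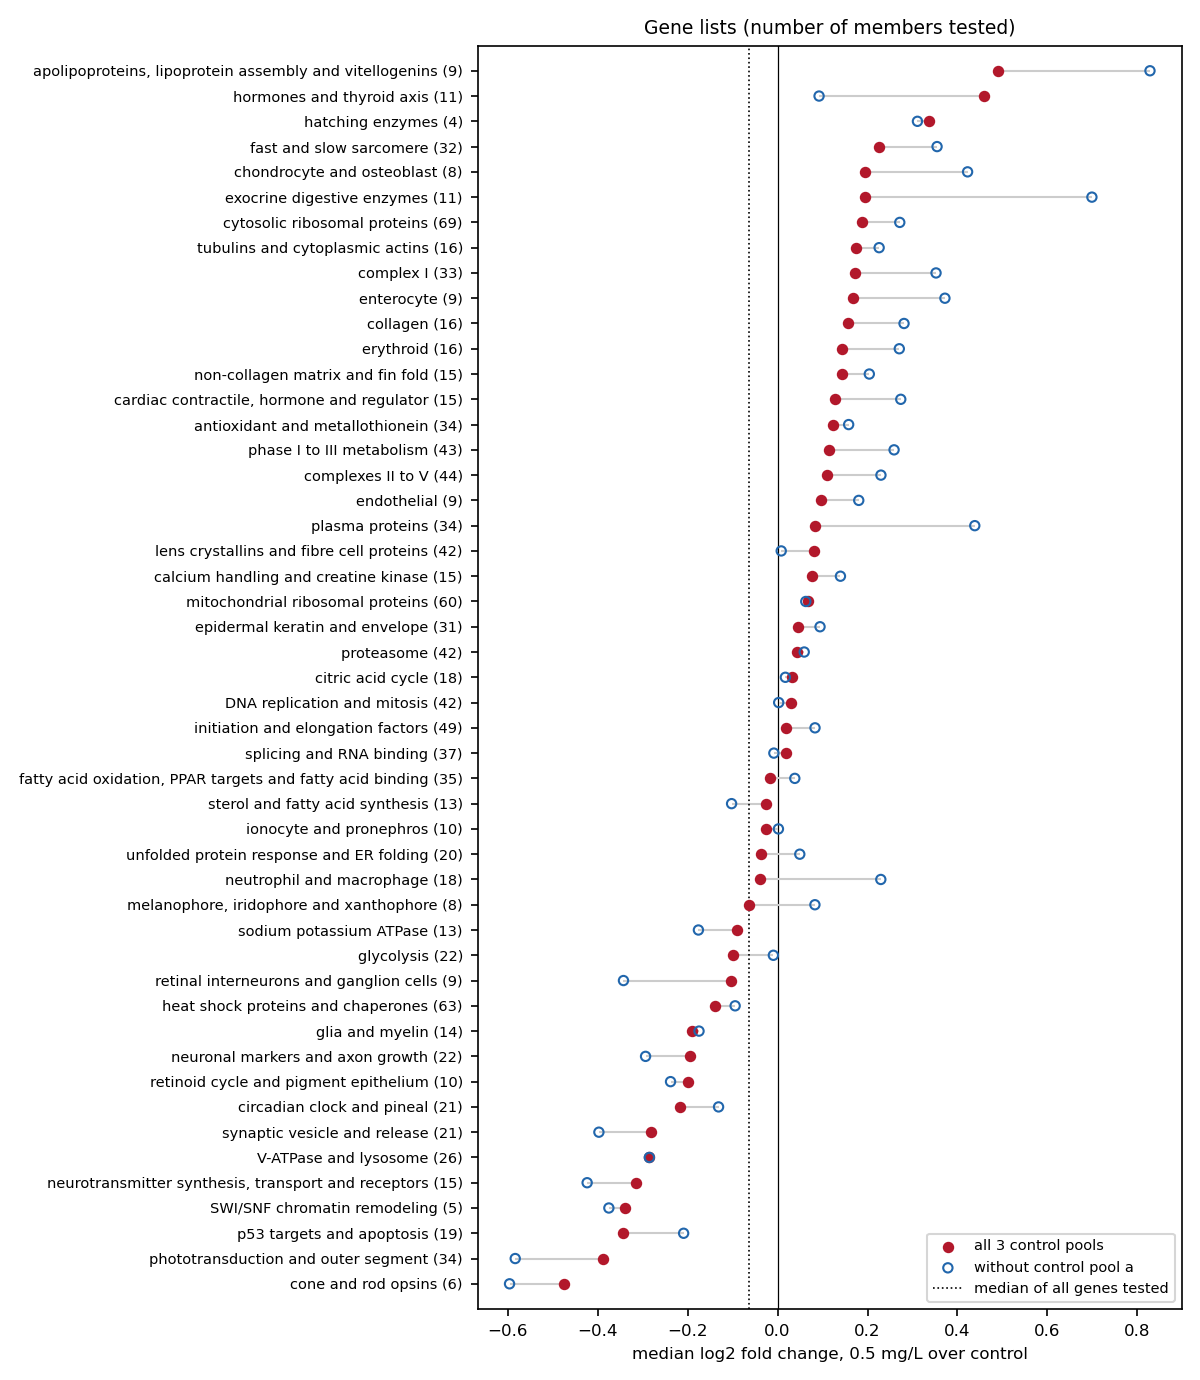
Median log2 fold change (0.5 mg/L over control, horizontal axis) of 49 gene lists, with the number of members tested in brackets; filled points use all 3 control pools, open points leave out control pool a, and the dotted line marks the median of all tested genes (-0.06). Opsins (-0.48) and phototransduction genes (-0.39) stand at the low end and apolipoproteins (0.49) at the high end, and without control pool a the medians of opsins and apolipoproteins lie farther from 0, at -0.60 and 0.83.

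Photoreceptor genes had the lowest medians of the 49 lists. All 6 tested opsin genes were below control, 5 of them with an unadjusted p under 0.05. The median log2 fold change was -0.48 (-0.60 without control pool a, -0.38 without control pool c). Opsins are the light-absorbing proteins of the outer segment. The rod opsin rho had values of 327, 291, 336 and 316 at 0.5 mg/L, against 355, 491 and 591 in control pools, in TMM-normalized units. The exposed pools lay within a narrow band below every control, and control pool a was the closest to them. For rho the log2 fold change was -0.56 (standard error 0.16), with an unadjusted p of 0.00128. Without control pool a it was -0.76, with an adjusted p of 0.00735 in limma. Without control pool b it was -0.53.

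The ultraviolet cone opsin opn1sw1 had values of 750, 755, 761 and 639 at 0.5 mg/L, against 954, 1007 and 1102 in control pools (log2 fold change -0.49, standard error 0.15). Here control pool a did not stand near the exposed pools, and the difference was -0.54 without it. The blue cone opsin opn1sw2 had 175, 144, 142 and 141 at 0.5 mg/L, against 177, 213 and 233 in control pools. Exposed pool a came within about 2 units of control pool a in this gene, and no pools overlapped. The red cone opsin opn1lw2 was lower by a log2 fold change of -0.37, with overlapping pools. Reads of opn1lw2 can be shared with its near-identical tandem copy, so its value is uncertain. In whole-embryo RNA, fewer cells of a type and less RNA per cell cannot be told apart.

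The genes that act after the opsins were lower too. Of 34 tested phototransduction and outer segment genes, 29 were below control and 5 above, 12 had an unadjusted p under 0.05 on the lower side and 0 on the higher side, and the median was -0.39 (-0.58 without control pool a, -0.31 without control pool b). For gngt1, the gamma subunit of rod transducin, values were 38.0, 45.5, 46.1 and 48.7 at 0.5 mg/L, against 50.3, 81.8 and 80.2 in control pools (log2 fold change -0.63, standard error 0.21). The cone transducin genes gngt2b and gnat2 differed by -0.30 and -0.39, and the pools of gngt2b did not overlap while those of gnat2 did. A larger difference was seen in prph2a, which encodes peripherin, a protein of the outer segment disc rim, with values of 71.0, 45.5, 38.0 and 37.8 at 0.5 mg/L, against 57.4, 93.7 and 88.9 in control pools (log2 fold change -0.75, standard error 0.22). Its exposed pool a lay above control pool a, so the groups overlapped. Averaged over the 34 genes, the log2 level was 4.60, 4.44, 4.42 and 4.26 in the exposed pools, against 4.42, 4.93 and 4.97 in control pools. Control pool a thus lay inside the exposed range for this list, whereas for the opsins (7.14 to 7.47 at 0.5 mg/L, 7.55 to 8.00 in control pools) no pools overlapped.

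**Figure D2:**
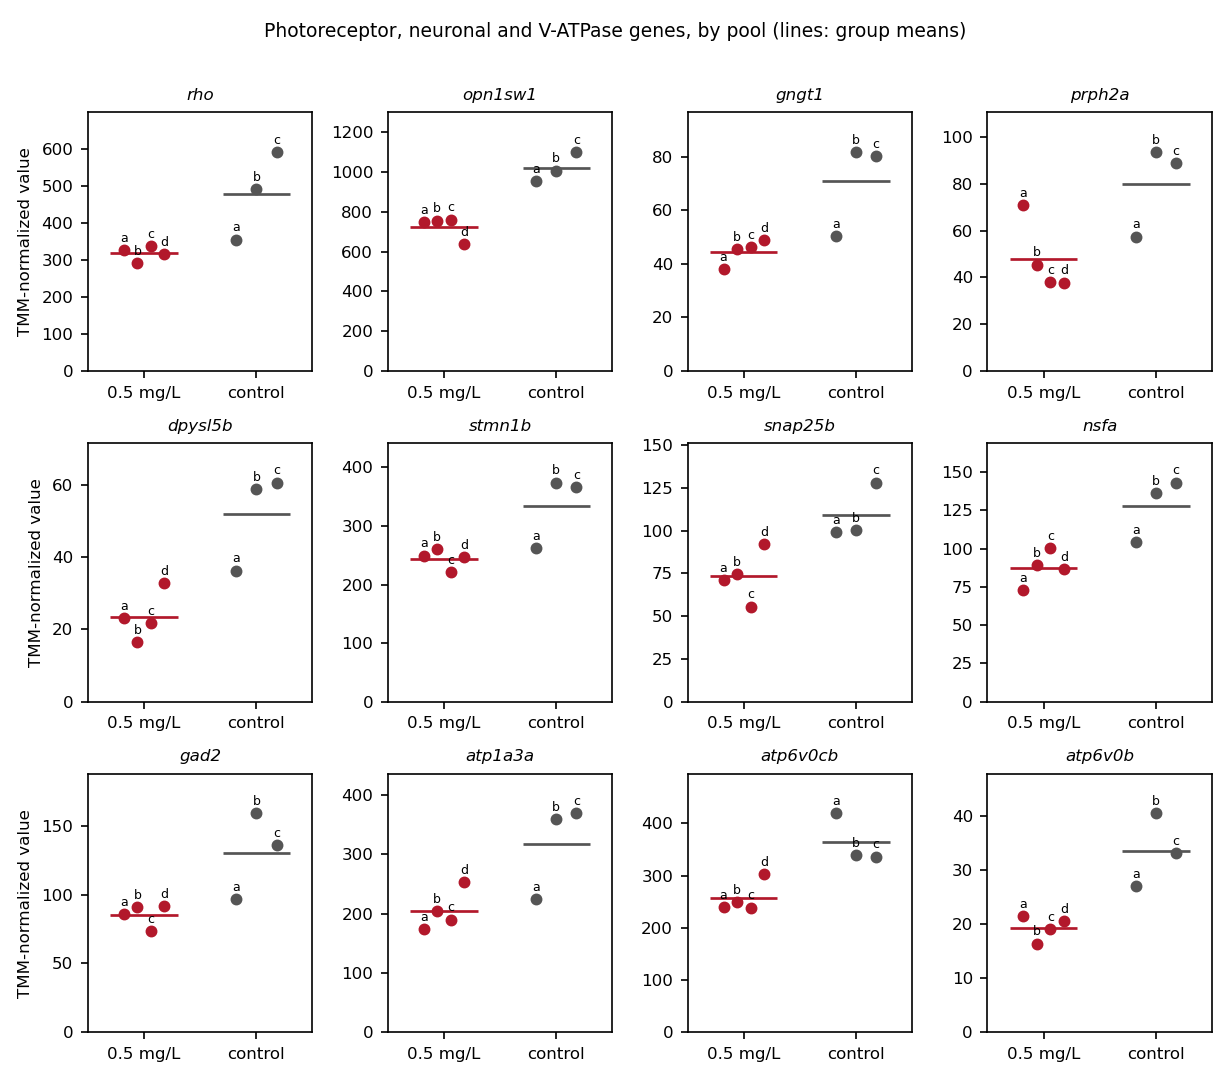
TMM-normalized values (vertical axes, from 0) of 12 genes that were lower at 0.5 mg/L, with each pool as a lettered point, 0.5 mg/L on the left and control on the right, and lines at the group means. In rho the exposed pools lie between 291 and 336 and the control pools between 355 and 591. Control pool a is the lowest control in every gene shown except atp6v0cb, where it is the highest.

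Other retinal genes were mostly below control as well, from few well-covered members. Retinoid cycle and pigment epithelium genes, which regenerate the visual chromophore, had a median of -0.20, with 9 of 10 below 0 and 0 at an unadjusted p under 0.05. This median was -0.35 without control pool b and -0.54 with thinned reads, and the mean level of the list did not overlap (2.97 to 3.42 at 0.5 mg/L, 3.46 to 3.66 in control pools). The isomerase gene rpe65a had values of 69.4, 72.8, 70.5 and 66.0 at 0.5 mg/L, against 75.9, 72.6 and 81.8 in control pools, a log2 fold change of -0.14 with an unadjusted p of 0.457 in limma. Of 9 retinal interneuron and ganglion cell genes, 2 had an unadjusted p under 0.05, both lower. Their median of -0.10 was -0.34 without control pool a, -0.30 without control pool b and -0.35 without 0.5 mg/L pool d. One was rbpms2b, an RNA-binding protein of retinal ganglion cells and heart, with values of 24.8, 23.7, 21.7 and 36.5 at 0.5 mg/L, against 37.6, 40.4 and 42.5 in control pools.

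Lens crystallins, the packed proteins of the lens fibre, went the other way in part. Of 42 tested, 30 were above control and 5 had an unadjusted p under 0.05, all higher, while the median of 0.08 was 0.01 without control pool a and 0.24 without control pool c. The gamma M crystallin crygm2d15 had values of 274, 308, 292 and 355 at 0.5 mg/L, against 179, 164 and 275 in control pools (log2 fold change 0.60, standard error 0.17). Control pool c reached the level of the lowest exposed pool. The beta crystallin cryba1b, by contrast, had 869, 822, 663 and 799 at 0.5 mg/L, against 635, 1015 and 851 in control pools, with full overlap. The gamma M crystallins are a large tandem family, and reads can be split between members. Pigment cell genes showed no common direction, with 3 of 8 above control.

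Neuronal genes were lower with one clear leader. dpysl5b, a collapsin response mediator protein that shapes growing axons and dendrites, had the smallest p of all 6933 genes. Its values were 23.1, 16.4, 21.7 and 32.7 at 0.5 mg/L, against 36.2, 58.8 and 60.5 in control pools, from 14, 9, 16 and 51 reads at 0.5 mg/L and 51, 64 and 77 reads in control pools. No pools overlapped, and the difference was -1.13 on the log2 scale (standard error 0.25, 95% interval -1.64 to -0.62, adjusted p = 0.386 in limma and 0.530 in edgeR). It passed the threshold without control pool a (log2 fold change -1.37, adjusted p = 0.00457 in limma) and without 0.5 mg/L pool d (adjusted p = 0.0566 in limma).

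Among 22 tested neuronal marker and axon growth genes, 17 were below control, 6 had an unadjusted p under 0.05 on the lower side and 0 on the higher side, and the median of -0.19 was -0.29, -0.11 and -0.12 without control pools a, b and c in turn. The stathmin gene stmn1b, which destabilizes microtubules in young neurons, had values of 249, 260, 221 and 247 at 0.5 mg/L, against 262, 374 and 366 in control pools. cdk5r2a, an activator of the neuronal kinase Cdk5, had 28.1, 23.7, 19.0 and 29.5 at 0.5 mg/L, against 33.3, 36.8 and 47.2 in control pools. Both were free of overlap, and for both control pool a was the lowest control. The alpha tubulin tuba1a, a neuronal gene in the same list, had a log2 fold change of 0.23 with an unadjusted p of 0.152 in limma. evlb, an Ena/VASP family actin regulator and no member of the list, was lower with values of 24.8, 14.6, 12.2 and 26.9 at 0.5 mg/L, against 34.7, 45.0 and 30.7 in control pools (log2 fold change -0.95, standard error 0.28).

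Synaptic genes were lower in the machinery of vesicle release. Of 21 tested, 16 were below control, 4 had an unadjusted p under 0.05, all lower, and 6 had pools that did not overlap, all lower. The median was -0.28 (-0.40 without control pool a, -0.21 without control pool b). snap25b, a SNARE protein of the presynaptic membrane, had values of 71.0, 74.6, 55.6 and 92.3 at 0.5 mg/L, against 99.3, 100.2 and 128 in control pools (log2 fold change -0.58, standard error 0.19). nsfa, the ATPase that takes SNARE complexes apart after fusion, had 72.7, 89.2, 100.4 and 86.6 at 0.5 mg/L, against 104, 136 and 143 in control pools (log2 fold change -0.54, standard error 0.18). In snap25b the highest exposed pool came close to the lowest control, and in nsfa likewise, so the gap between the groups was small in each. vat1, a vesicle membrane protein, had a log2 fold change of -0.28 without overlap.

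Genes of the inhibitory transmitter GABA lay on the same side. gad2, which makes GABA from glutamate, had values of 85.9, 91.0, 73.3 and 91.7 at 0.5 mg/L, against 96.4, 159 and 136 in control pools (log2 fold change -0.58, standard error 0.18; -0.79 without control pool a, adjusted p = 0.0370 in limma). Its paralog gad1b had a log2 fold change of -0.45 with overlapping pools. The vesicular GABA transporter slc32a1 and the GABA reuptake transporter slc6a1b had values of -0.28 and -0.34, both with an unadjusted p above 0.1. Over the 15 tested transmitter genes the median was -0.31 (-0.42 without control pool a, -0.23 without control pool b). Of the 15, 10 were below control and 1 had an unadjusted p under 0.05. calb2a, the calcium buffer calretinin of many interneurons, had 34.7, 34.6, 28.5 and 37.8 at 0.5 mg/L, against 44.7, 50.5 and 62.9 in control pools.

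Glial genes and neuronal ion pumps were mixed around the same direction. Of 14 glia and myelin genes, 10 were below control and 4 had an unadjusted p under 0.05, all lower. Their median was -0.19, with -0.29 over the well-covered members, -0.29 without control pool b and -0.39 with thinned reads. The mean log2 level of this list did not overlap (4.15 to 4.31 at 0.5 mg/L, 4.39 to 4.43 in control pools). The progenitor factor sox2 had 34.7, 40.0, 47.5 and 45.5 at 0.5 mg/L, against 49.6, 62.5 and 59.8 in control pools. The brain fatty acid binding protein fabp7a of radial glia did not share this, with 631, 655, 663 and 762 at 0.5 mg/L, against 610, 609 and 732 in control pools. The sodium pump subunit atp1a3a, the neuronal alpha chain, had 173, 204, 190 and 253 at 0.5 mg/L, against 224, 358 and 369 in control pools (log2 fold change -0.61, standard error 0.17; -0.84 without control pool a, adjusted p = 0.00457 in limma). atp1b2a, a beta chain, had a log2 fold change of -0.71. Over all 13 sodium potassium ATPase genes the median was -0.09, which was -0.18 without control pool a and 0.01 without control pool c, and the alpha 1 chain atp1a1a.4 stood at 0.49.

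The vacuolar proton pump, which acidifies lysosomes and synaptic vesicles, was lower in several subunits. Of 26 V-ATPase and lysosome genes, 21 were below control, with 4 lower and 1 higher at an unadjusted p under 0.05, and the median was -0.28 with or without control pool a. Without control pool c it was -0.12, and without 0.5 mg/L pool b it was -0.18. atp6v0cb, a subunit of the membrane ring that the synaptic list also holds, had values of 239, 249, 239 and 302 at 0.5 mg/L, against 419, 339 and 336 in control pools (log2 fold change -0.50, standard error 0.16). In this gene control pool a was the highest pool of all. The ring subunit atp6v0b had 21.5, 16.4, 19.0 and 20.5 at 0.5 mg/L, against 26.9, 40.4 and 33.03 in control pools. The stalk subunit atp6v1f had 11.6, 10.9, 14.9 and 17.3 at 0.5 mg/L, against 29.1, 20.2 and 25.9 in control pools. Each of these subunits was free of overlap, with log2 fold changes of -0.76 for atp6v0b and -0.86 for atp6v1f, though both rest on few reads (means of 27 and 21 over the 7 pools). The catalytic subunit atp6v1aa did not separate the groups (log2 fold change -0.16).

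Some regulatory and stress lists also had medians below the background of -0.06. Targets of p53 and apoptosis genes had 16 of 19 members below control with 2 at an unadjusted p under 0.05. The median of -0.34 was -0.21 without control pool a, -0.46 without control pool b, -0.70 with thinned reads, -0.17 with quantile normalization and -0.16 over the 6 well-covered members. The best covered of them, the cyclin ccng1, had a log2 fold change of 0.03, and sesn1, a stress-induced inhibitor of growth signaling, had 19.8, 29.1, 27.13 and 18.6 at 0.5 mg/L, against 33.3, 32.2 and 38.5 in control pools. All 5 SWI/SNF chromatin remodeling genes were below control (median -0.34, but -0.17 without control pool c and -0.16 without 0.5 mg/L pool b). Its member smarcd1 had 44.6, 30.9, 21.7 and 47.4 at 0.5 mg/L, against 89.3, 38.6 and 47.2 in control pools, where control pool a alone was far higher; the log2 fold change was -0.65 with it and -0.30 without it. bhlhe40, a clock-linked transcriptional repressor, had 24.8, 16.4, 33.9 and 24.4 at 0.5 mg/L, against 39.0, 43.2 and 39.3 in control pools (log2 fold change -0.74, standard error 0.25). The core clock gene per1b had 29.7, 27.3, 19.0 and 55.8 at 0.5 mg/L, against 28.4, 24.8 and 38.5 in control pools. lig3, a DNA ligase of nuclear and mitochondrial repair, had 9.91, 9.10, 12.2 and 18.6 at 0.5 mg/L, against 22.7, 27.6 and 22.8 in control pools. The clone-named gene zgc:110158 was also among the lower genes without overlap.

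Skeletal muscle genes had a median above control. Of 32 tested sarcomere genes, 24 were above control, 8 had an unadjusted p under 0.05 on the higher side and 0 on the lower side. In 5 the pools did not overlap. The median was 0.23, which was 0.35, 0.16 and 0.20 without control pools a, b and c in turn. The skeletal alpha actin acta1b had values of 3132, 2560, 2760 and 3174 at 0.5 mg/L, against 2457, 2247 and 2167 in control pools, a log2 fold change of 0.34 (standard error 0.16) that turned to -0.20 with quantile normalization. ldb3a, a Z-disc protein, had 52.8, 61.9, 55.6 and 69.9 at 0.5 mg/L, against 44.7, 40.4 and 40.1 in control pools (log2 fold change 0.51, standard error 0.20). In acta1b and ldb3a all 3 control pools stood together, so these differences did not hang on control pool a. prp, a name that the RefSeq annotation of GRCz12tu lists under col22a1, a collagen of the muscle to tendon junction, had 36.3, 41.9, 43.4 and 41.7 at 0.5 mg/L, against 31.9, 22.05 and 22.02 in control pools (log2 fold change 0.70, standard error 0.23).

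In the fast myosin light chains control pool a was level with the exposed pools. myl1 had values of 1034, 804, 1122 and 953 at 0.5 mg/L, against 934, 459 and 580 in control pools, and its log2 fold change of 0.63 (standard error 0.18) was 0.91 without control pool a (adjusted p = 0.000783 in limma). myl13 had 296, 298, 316 and 230 at 0.5 mg/L, against 295, 163 and 142 in control pools (log2 fold change 0.58; 0.90 without control pool a, adjusted p = 0.00262 in limma). The troponin I gene tnni2b.2 had 180, 204, 236 and 106 at 0.5 mg/L, against 182, 98.3 and 91.2 in control pools. The best covered genes of the list, the myosin light chain mylpfa and the alpha actin actc1b, had log2 fold changes of only 0.22 and 0.16. Myosin and actin genes have close paralogs, so reads of single members can be shared.

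Around the sarcomere the differences were smaller. Calcium handling and creatine kinase genes had a median of 0.08 (-0.01 with thinned reads), with 1 of 15 at an unadjusted p under 0.05, the muscle creatine kinase ckma (1972, 1378, 1601 and 1638 at 0.5 mg/L, against 1697, 961 and 1280 in control pools). Heart genes had a median of 0.13, which was 0.27 without control pool a and 0.03 without control pool c, with 3 of 15 higher at an unadjusted p under 0.05, but the 3 that were well covered did not separate the groups: the ventricular myosin vmhc had 121, 102, 109 and 78.2 at 0.5 mg/L, against 89.3, 121 and 77.1 in control pools. The heart and slow muscle troponin tnnc1b had a log2 fold change of 0.05 and nexn, an actin-binding Z-disc protein, of 0.21.

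**Figure D3:**
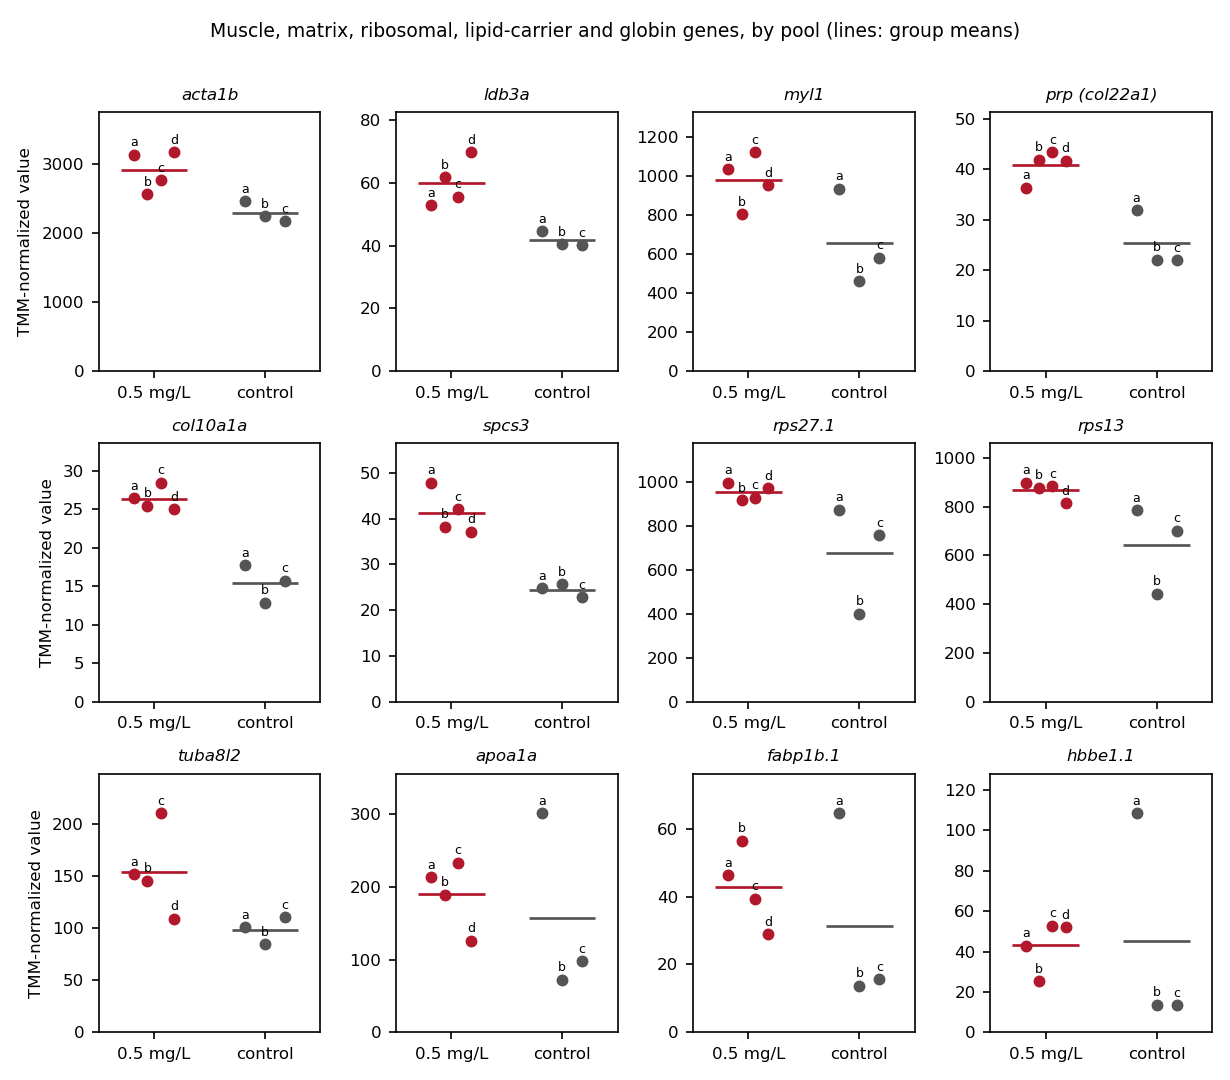
TMM-normalized values (vertical axes, from 0) of 12 genes with a limma log2 fold change above 0 at 0.5 mg/L. Each pool is a lettered point, with 0.5 mg/L on the left, control on the right and lines at the group means. In hbbe1.1 the line at 0.5 mg/L (43.3) lies below that of control (45.2). acta1b, ldb3a, prp, col10a1a, spcs3, rps27.1 and rps13 show no overlap; in apoa1a, fabp1b.1 and hbbe1.1 control pool a is the highest of the 7 pools (301, 64.5 and 108) and control pools b and c are the lowest.

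Connective tissue genes were higher in part. Of 16 collagen genes, 12 were above control and 3 had an unadjusted p under 0.05, all higher (median 0.16, with 0.28 without control pool a and 0.08 without control pool c). col10a1a, a collagen of early bone and of hypertrophic cartilage, had values of 26.4, 25.5, 28.5 and 25.004 at 0.5 mg/L, against 17.7, 12.9 and 15.7 in control pools (log2 fold change 0.76, standard error 0.27). The cartilage collagen col9a2 had 347, 335, 270 and 291 at 0.5 mg/L, against 313, 193 and 196 in control pools, and the cartilage matrix gene matn1 had 286, 189, 183 and 147 at 0.5 mg/L, against 218, 154 and 91.2 in control pools. In both, control pool a lay among the exposed pools. The abundant col1a1a of skin and bone had a log2 fold change of 0.13, and the fin fold gene and1 of -0.26. prss35, a serine protease-like gene, had 44.6, 27.3, 42.1 and 24.4 at 0.5 mg/L, against 23.4, 23.9 and 19.7 in control pools.

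The skin keratins as a list stayed near 0, with a median of 0.05 (-0.01 when each pool was rescaled to the same total) and 1 of 31 at an unadjusted p under 0.05. The periderm keratin krt4 had 4871, 4211, 4630 and 5379 at 0.5 mg/L, against 4521, 4951 and 5166 in control pools. The cytoskeleton list of 16 genes had 3 higher and 0 lower at an unadjusted p under 0.05. Its median was 0.17, and 0.10 without control pool b. The alpha tubulin tuba8l2 had 152, 146, 210 and 109 at 0.5 mg/L, against 101, 84.5 and 111 in control pools (log2 fold change 0.61, standard error 0.19), with overlap. Of other alpha tubulins, tuba8l3 had a log2 fold change of 0.51 and tuba1a of 0.23. The cytoplasmic actins actb1 and actb2, often used as reference genes, had log2 fold changes of -0.00 and -0.07.

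Ribosomal protein genes had mostly small positive differences. Of 69 tested, 64 were above control, 17 had an unadjusted p under 0.05 on the higher side and 0 on the lower side, and in 9 the pools did not overlap. The median was 0.19, and it was 0.27 without control pool a, 0.10 without control pool b and 0.04 with quantile normalization. The small subunit gene rps27.1 had values of 997, 917, 929 and 971 at 0.5 mg/L, against 874, 401 and 756 in control pools (log2 fold change 0.57, standard error 0.18; 0.23 without control pool b). The exposed pools lay close together, and the control pools were spread widely with pool b at the bottom. rps13 had 898, 877, 883 and 813 at 0.5 mg/L, against 784, 443 and 701 in control pools, with the same low pool b. faua, rpl10a and rps28 also had no overlap, with log2 fold changes of 0.39, 0.39 and 0.38. The stalk proteins rplp0 and rplp1 had 0.23 and 0.14. Averaged over the list, the log2 level was 9.49, 9.35, 9.49 and 9.47 at 0.5 mg/L, against 9.42, 9.01 and 9.28 in control pools. Ribosomal protein genes have near-identical copies elsewhere in the genome that can take up their reads, which makes the value of any one of them uncertain.

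In other parts of protein synthesis the medians were nearer 0. Translation initiation and elongation factors had a median of 0.02, with 0 of 49 genes higher and 1 lower at an unadjusted p under 0.05. The lower gene was eef1a1a, with a log2 fold change of -0.73 and no overlap of pools. Mitochondrial ribosomal proteins had a median of 0.07 (-0.02 without control pool b), with 2 of 60 higher and 1 lower at an unadjusted p under 0.05, and their pools did not overlap in 5 higher and 2 lower genes. Over all tested genes the shares were 2.68% higher and 3.52% lower at that p. Pools did not overlap in 2.35% on the higher side and 4.14% on the lower side. spcs3, a subunit of the signal peptidase that trims secreted proteins in the endoplasmic reticulum, had the smallest p among well-covered higher genes whose pools did not overlap. Its values were 47.9, 38.2, 42.1 and 37.2 at 0.5 mg/L, against 24.8, 25.7 and 22.8 in control pools. The log2 difference was 0.74 (standard error 0.23) and kept that size without control pool a, at 0.75. hypk, a chaperone-like protein of the ribosome exit, had 84.2, 81.9, 66.5 and 84.0 at 0.5 mg/L, against 63.1, 61.6 and 51.9 in control pools. p4hb, protein disulfide isomerase, had 80.9, 45.5, 93.6 and 50.6 at 0.5 mg/L, against 41.1, 36.8 and 51.1 in control pools, while atf4b, a stress-induced transcription factor, had 47.9, 51.0, 54.3 and 81.4 at 0.5 mg/L, against 73.0, 93.7 and 92.8 in control pools. The list of unfolded protein response genes as a whole had a median of -0.04.

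Respiratory chain genes had medians slightly above control. Complex I had 25 of 33 genes above control, 3 at an unadjusted p under 0.05 and a median of 0.17 (0.35 without control pool a, 0.04 without control pool b), and complexes II to V had 33 of 44 above control and a median of 0.11 (-0.02 without control pool b). ndufb11, an accessory subunit of complex I, had 87.5, 78.2, 77.3 and 73.1 at 0.5 mg/L, against 84.4, 37.7 and 52.7 in control pools. cyc1, cytochrome c1, had a single high pool, with 380, 122, 134 and 107 at 0.5 mg/L, against 133, 104 and 109 in control pools. Of the citric acid cycle, suclg1 stood out with 168, 180, 164 and 131 at 0.5 mg/L, against 139, 107 and 101 in control pools, while the list had a median of 0.03. Glycolysis had a median of -0.10 (-0.01 without control pool a), with the glyceraldehyde phosphate dehydrogenase gene gapdhs at -0.32 and the muscle enolase eno3 at 0.33.

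Transcripts of the liver, yolk, gut and red blood cells varied widely among the control pools. The apolipoprotein apoa1a, the main protein of high-density lipoprotein, had values of 213, 189, 233 and 126 at 0.5 mg/L, against 301, 72.6 and 98.3 in control pools. The apolipoprotein apoa2 had 121, 65.5, 111 and 99.4 at 0.5 mg/L, against 133, 38.6 and 52.7 in control pools. fabp1b.1, the fatty acid binding protein of liver and intestine, had 46.2, 56.4, 39.3 and 28.9 at 0.5 mg/L, against 64.5, 13.8 and 15.7 in control pools. In each, control pool a was above all exposed pools and control pools b and c below them.

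The same held for the embryonic globin hbbe1.1, with 42.9, 25.5, 52.9 and 51.9 at 0.5 mg/L, against 108, 13.8 and 13.4 in control pools. The log2 fold changes were 0.52 for apoa1a, 0.58 for apoa2, 0.77 for fabp1b.1 and 0.60 for hbbe1.1, and without control pool a they were 1.13, 1.09, 1.46 and 1.58 (adjusted p = 0.000783, 0.00457, 0.00331 and 0.00175 in limma). Without control pool b they were 0.11, 0.21, 0.37 and 0.12. For hbbe1.1 the tests on reads gave the opposite sign, with -0.033 in edgeR and -0.0090 in DESeq2. Globins are near-identical tandem copies, so reads can be shared between them.

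As lists, the 9 apolipoprotein and lipoprotein assembly genes had a median of 0.49, which was 0.83, 0.11 and 0.31 without control pools a, b and c in turn. Their mean log2 level was 5.15, 4.93, 4.87 and 4.68 at 0.5 mg/L, against 5.45, 3.90 and 4.15 in control pools. Plasma protein genes of the liver had 5 of 34 members higher at an unadjusted p under 0.05 and a median of 0.08, which was 0.44, 0.02 and -0.00 without control pools a, b and c in turn. Over the 6 well-covered members of the list it was 0.62. The protease inhibitor serpina1l had 47.9, 29.1, 51.5 and 12.8 at 0.5 mg/L, against 34.0, 13.8 and 12.6 in control pools, and transferrin, tfa, had 203, 133, 190 and 90.4 at 0.5 mg/L, against 174, 71.7 and 106 in control pools. Pool d at 0.5 mg/L was the lowest exposed pool in both. Pancreatic digestive enzymes had no well-covered member, and their median of 0.19 was 0.70 without control pool a and -0.12 without control pool b. Red cell genes had a median of 0.14 (0.27 without control pool a, 0.03 without control pool b), and the globin hbae3 had 233, 124, 166 and 185 at 0.5 mg/L, against 230, 130 and 137 in control pools.

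**Figure D4:**
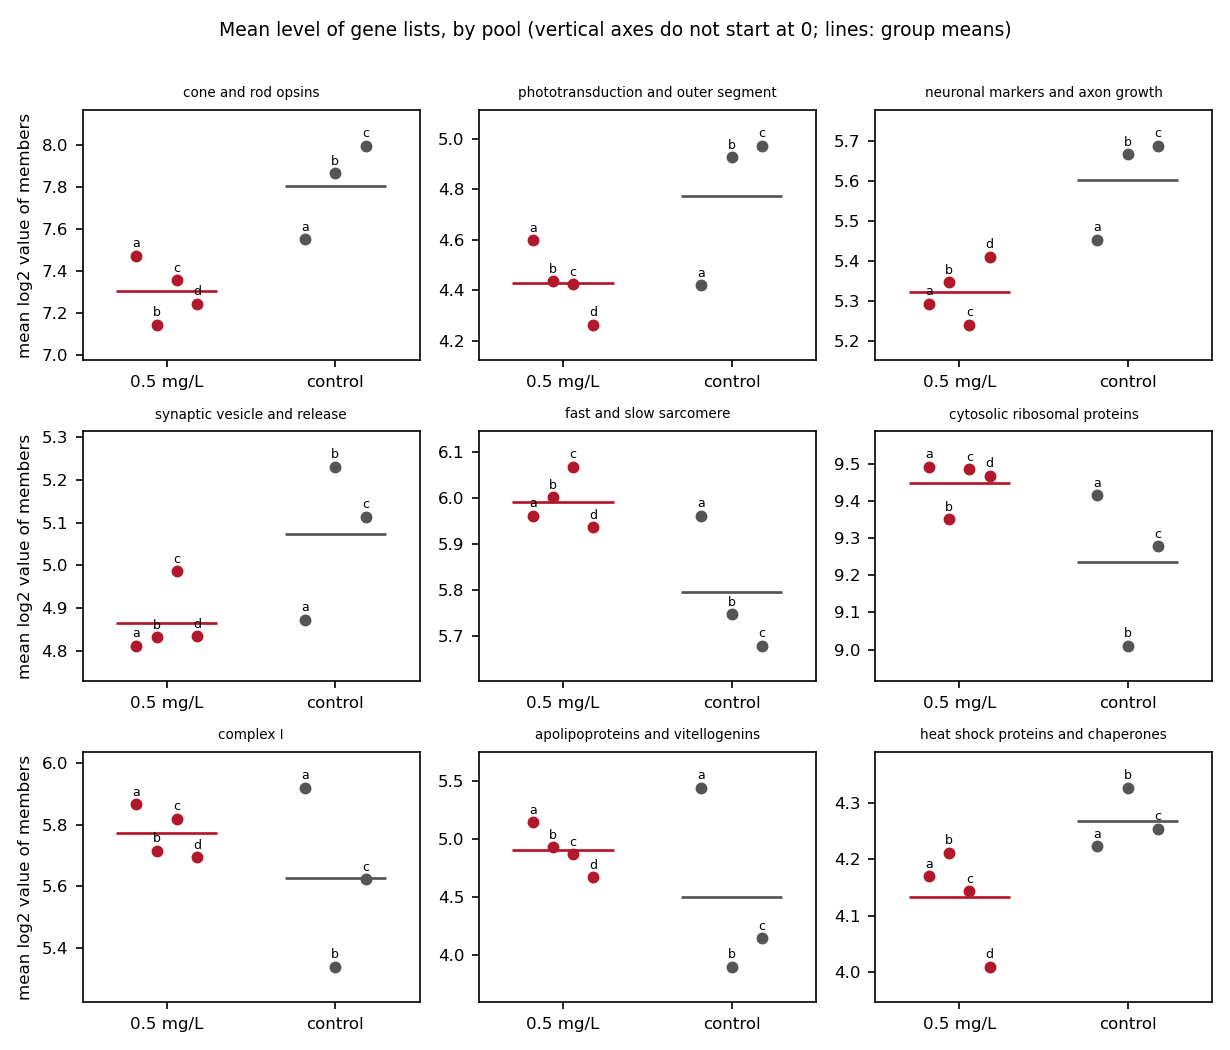
Mean log2 value of the tested members of 9 gene lists (vertical axes, which do not start at 0), with each pool as a lettered point, 0.5 mg/L on the left and control on the right, and lines at the group means. Opsins (7.14 to 7.47 at 0.5 mg/L, 7.55 to 8.00 in control), neuronal genes and heat shock proteins show no overlap of pools, whereas control pool a lies inside or beyond the exposed range in phototransduction, synaptic, sarcomere, ribosomal, complex I and apolipoprotein genes.

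Control pool a thus lay nearer to the exposed pools than control pools b and c did in the means of opsin, phototransduction, neuronal, synaptic, sarcomere and ribosomal protein genes. Without it, 0.663% of all tested genes (46) and 2.41% of well-covered genes were called. Among the 46 were 10 of 69 ribosomal protein genes, 4 of 9 apolipoprotein list genes, 4 of 34 phototransduction genes and 2 of 6 opsins. Of the 69 ribosomal protein genes, 67 were well covered. The part of this pool's composition in the results was not tested.

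Among genes often followed in studies of fluorinated surfactants, those of fatty acid and foreign compound metabolism had medians near that of all genes or few members with a small p. Fatty acid oxidation genes, PPAR targets and fatty acid binding proteins, which respond to related compounds in rodent liver, had a median of -0.02, with 15 of 35 above control and 2 higher at an unadjusted p under 0.05. The heart fatty acid binding protein fabp3 had 112, 131, 119 and 134 at 0.5 mg/L, against 139, 119 and 122.7 in control pools, and the PPAR target angptl4 had 26.4, 9.10, 21.7 and 19.9 at 0.5 mg/L, against 19.1, 39.5 and 24.4 in control pools. Phase I to III metabolism genes had a median of 0.12 (-0.10 with thinned reads, 0.26 without control pool a and 0.0047 without control pool b), with 2 of 43 higher at an unadjusted p under 0.05, but only 2 were well covered. One of them, gstp1, had 74.3, 61.9, 66.5 and 66.0 at 0.5 mg/L, against 66.6, 62.5 and 62.1 in control pools.

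Antioxidant genes had a median of 0.12 (0.0014 without control pool b) with 0 of 34 at an unadjusted p under 0.05, and sod1 had 62.7, 56.4, 73.3 and 37.8 at 0.5 mg/L, against 65.9, 30.3 and 34.6 in control pools. Sterol and fatty acid synthesis genes had a median of -0.03 with 0 of 13. Hormone and thyroid axis genes had a median farther from 0. Of 11 tested, 3 were higher at an unadjusted p under 0.05, beside 2.68% of all tested genes, but none was well covered. The median of 0.46 was 0.09 without control pool a, 0.75 without 0.5 mg/L pool d and 0.97 with thinned reads. DNA replication, splicing and proteasome genes had medians of 0.03, 0.02 and 0.04, with 0 of 42, 0 of 37 and 3 of 42 at an unadjusted p under 0.05.

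Heat shock proteins and chaperones had a median slightly below control. Of 63 tested, 40 were below control, 2 were lower and 1 higher at an unadjusted p under 0.05, and the median was -0.14, or -0.07 without 0.5 mg/L pool c or pool d and -0.06 over the well-covered members. The mean log2 level of the list was 4.17, 4.21, 4.14 and 4.01 at 0.5 mg/L, against 4.22, 4.33 and 4.25 in control pools, with no overlap. The 2 most highly read members did not separate the groups, with log2 fold changes of -0.05 for hsp90ab1 and 0.01 for hspa8. The chaperonin subunit tcp1 had 57.8, 69.1, 50.2 and 88.5 at 0.5 mg/L, against 78.0, 56.1 and 171 in control pools, so that control pool c alone set its difference.

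Set against the 12 pools at 1, 2 and 10 mg/L, the 0.5 mg/L pools also differed in no gene that passed the test. Limma called 0 of 6933 genes (0.0%), with 365 (5.26%) at an unadjusted p under 0.05. Of these, 153 (2.21%) were higher and 212 (3.06%) lower at 0.5 mg/L. Among well-covered genes this was 128 (7.35%), with 71 higher (4.08%) and 57 lower (3.27%). edgeR called 0 genes, with 316 at an unadjusted p under 0.05, and the smallest adjusted p in limma was 0.327. Without 0.5 mg/L pool d, limma called 7 genes, 3 higher and 4 lower at 0.5 mg/L, and these are named after their values were seen. Pool d of the other exposures stayed in that fit. In a gene where the d pools are low, leaving one out at 0.5 mg/L alone raises the 0.5 mg/L side.

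Among the 3 higher genes were chaperones of the cytosol and the endoplasmic reticulum. hsp90aa1.2, which encodes an Hsp90 alpha chaperone, had values of 412.7, 386 and 353 in control pools and 329, 439, 366 and 121 at 0.5 mg/L. The 1 mg/L pools had 357, 196, 193 and 104. Those given 2 mg/L had 306, 193, 316 and 97.9, and 279, 168, 214 and 145 were found at the highest exposure of 10 mg/L. Pools a to c at 0.5 mg/L were thus near control, and pool d was the lowest pool of its group at every exposure. Against the other exposures the log2 difference was 0.51 with all pools (adjusted p = 0.905 in limma) and 0.92 without 0.5 mg/L pool d (adjusted p = 0.0484 in limma). The low d pools of the other exposures stayed in that fit, so the second value is no support for a difference.

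hspa5, the chaperone BiP of the endoplasmic reticulum, had 193, 112 and 136 in control pools and 219.6, 186, 206 and 109 at 0.5 mg/L. The 1 mg/L pools had 163, 127, 124 and 89.2. Those given 2 mg/L had 179, 169.6, 139 and 97.4, and 148, 129, 91.2 and 99.2 were found at 10 mg/L. Pool d was the lowest of its group except at 10 mg/L. Against the other exposures the log2 difference was 0.46 with all pools (adjusted p = 0.776 in limma) and 0.69 without 0.5 mg/L pool d (adjusted p = 0.0616 in limma). Here too the d pools of the other exposures stayed in the fit. Comparisons with control do not rest on pool d alone: without it, the 0.5 mg/L medians against control were -0.43 for opsins, -0.31 for phototransduction genes, 0.24 for sarcomere genes and 0.16 for ribosomal protein genes.

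The third higher gene was trdmt1, a tRNA methyltransferase, and the 4 lower genes were sepw2b, paip1, zfr and hax1. The selenoprotein gene sepw2b had 17.02, 21.1 and 32.2 in control pools and 1.65, 16.4, 14.9 and 21.8 at 0.5 mg/L, with 16.9 to 37.5 at the other exposures. Its pool a at 0.5 mg/L held 1 read. zfr, a zinc finger RNA-binding protein, had 51.8, 50.5 and 55.0 in control pools and 46.2, 34.6, 29.8 and 60.3 at 0.5 mg/L, with 50.5 to 66.6 at the other exposures, so exposed pools a to c were below every other pool. hax1, paip1 and trdmt1 had means of 9.3, 10.1 and 3.0 reads over the 0.5 mg/L and control pools and rest on too few reads to describe further.

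**Figure D5:**
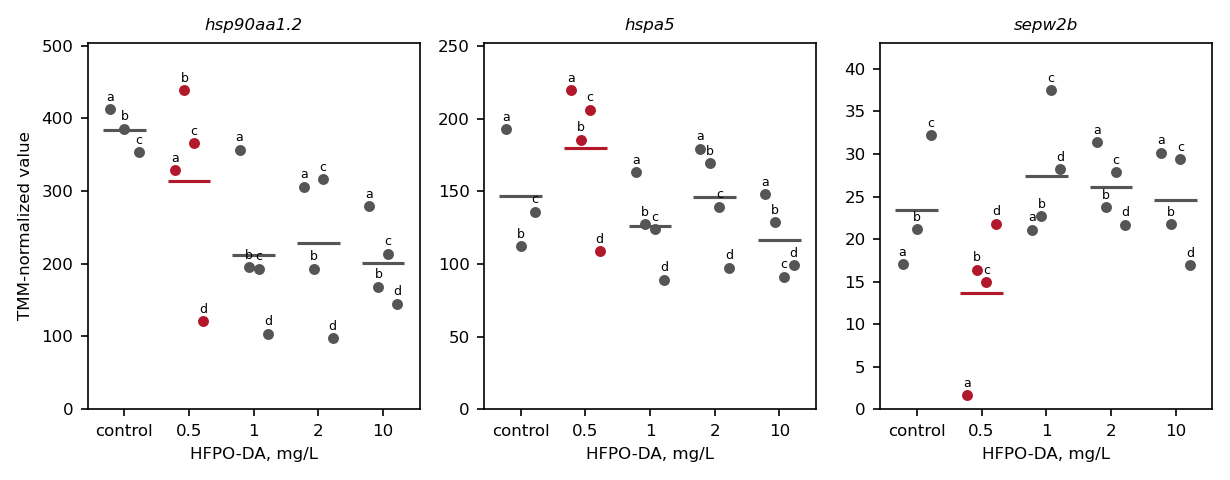
TMM-normalized values (vertical axes, from 0) of hsp90aa1.2, hspa5 and sepw2b by HFPO-DA concentration (horizontal axis, in mg/L, with untreated control at the low end), with each pool as a lettered point, the 0.5 mg/L pools in red and lines at the group means. Pool d is the lowest pool of hsp90aa1.2 in all 4 exposed groups, at 121, 104, 97.9 and 145.

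For the leading lists, each exposure's own difference from the same 3 control pools can be set side by side, and the comparisons share those pools. From the lowest exposure to the highest, the median log2 fold change of opsins was -0.48, -0.55, -0.44 and -0.28, and that of phototransduction genes was -0.39, -0.45, -0.45 and -0.33. Ribosomal protein genes had medians of 0.19, 0.03, 0.22 and 0.18 in the same order, and sarcomere genes 0.23, 0.12, 0.28 and 0.16. For apolipoproteins they were 0.49, 0.25, 0.21 and 0.35, and for V-ATPase and lysosome genes -0.28, -0.18, -0.05 and -0.12. Without the control pools, the median difference of the 0.5 mg/L pools from the other exposures was -0.06 for opsins, -0.02 for phototransduction genes, 0.04 for ribosomal protein genes, -0.02 for sarcomere genes and 0.05 for apolipoproteins, beside -0.01 over all tested genes. It was -0.20 for V-ATPase and lysosome genes. Among single genes, dpysl5b had differences from control of -1.13, -0.89, -0.88 and -0.73 from the lowest to the highest exposure, and spcs3 had 0.74, 0.33, 0.47 and 0.16.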

How the data were processed

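RNA of 7 embryo pools was compared. The authors removed duplicate molecules with UMI-tools 1.1.2, trimmed reads with Trimmomatic 0.40, mapped them with STAR, counted them per gene with HTSeq 0.13.5 and deposited TMM-normalized values, a signal with 1 column per pool and 9368 genes. Zeros had been replaced by the value of 0.5 reads. Whole reads were recovered from 100% of the remaining values, within 0.001 reads. The value of 1 read was 1.65, 1.82, 1.36 and 0.64 in 0.5 mg/L pools a to d, and 0.71, 0.92 and 0.79 in control pools a to c. A replaced zero thus stood higher in 0.5 mg/L pools a to c than in any control pool. With replaced zeros set to 0, limma gave 125 higher and 254 lower genes at an unadjusted p under 0.05, beside 186 and 244 as deposited. Genes with a mean above 2.75 CPM over the 19 pools (6933) were tested with limma 3.58.1 in R 4.3.3 (two-sided, variance trend fitted), after adding 0.5 and taking log2, which understates changes of low genes, at a Benjamini-Hochberg adjusted p under 0.1. The submitters' notes name the builds GRCz10 and GRCz11; gene names are as deposited and no coordinates were used. The study's noiseqbio test was not run. edgeR 4.0.16, with 0 genes called, and DESeq2 1.42.0 used the recovered reads.

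Genes were named by rule: called genes; the 15 higher and the 15 lower well-covered genes with the smallest p and no overlap; in each list, the 2 well-covered members with the highest value and the 2 with the largest difference; and up to 10 genes called when 1 pool was left out. Genes named because they were called when 1 pool was left out were picked on that outcome. The comparison, the rule and the lists were chosen with earlier results of these data known. Alternatives in scaling, filter, pseudocount and tool were tried. The fits were tested on simulated data with changes larger than the differences from control described here. That test therefore does not show whether changes of the described size would be found.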

Additional observations from a re-analysis of the deposited data

Results flagged for a closer look

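The check covered 86 items, namely the list means and the genes named by lack of overlap or by a call with 1 pool left out. Genes named only as list members, cyc1 among them, were not checked. In each item the highest or lowest of the 4 pools at 0.5 mg/L was compared with the others. In 7 of the 86 the gap between that pool and its nearest neighbour as a share of the range passed Dixon's 95% critical value. Chance does this in about 1 in 20 groups. The share was 0.869 for hypk, where pool c was low (66.5, against 81.9 to 84.2 in the other pools), 0.908 for opn1sw1, where pool d was low (639, against 750 to 761), and 0.833 for atp6v0cb, where pool d was high (302, against 239 to 249). For list means it was 0.875 for synaptic vesicle and release genes, where pool c was high, 0.837 for ionocyte and pronephros genes, where pool c was low, 0.831 for cytosolic ribosomal proteins, where pool b was low, and 0.911 for splicing and RNA binding genes, where pool d was high.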

How the results depend on the processing

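The count of 0 genes against control stayed at 0 under edgeR, DESeq2, limma without trend, a joint fit of the 5 groups, a threshold of 0.05, thinned reads, quantile normalization, rescaling, pseudocounts of 0.1 and 2, true zeros, and either no filter or one at 10 CPM. Leaving out 1 pool gave 0 to 46 genes, the most without control pool a, where edgeR, an alternative chosen after seeing the data, gave 95. A replicate block for the letters, in which 0.5 mg/L pool d has no partner and adds nothing to the difference, gave 29 genes. Deviations of same-lettered pools had correlations of 0.08, 0.08 and -0.08, so letters a to c are not taken as pairs. The check did not cover letter d. Pools d at 0.5, 1 and 2 mg/L were the deepest of their groups (443076, 581494 and 579196 reads). In values that were not thinned, their rank correlations with each other were 0.934, 0.942 and 0.947. On this measure 0.5 mg/L pool d had 0.899 to 0.919 with the control pools. These values cannot be set beside the correlations from thinned reads, which also used another set of genes. What these d pools share was not tested. Of the genes with an unadjusted p under 0.05, 56.7% were lower, beside 68.8% with rescaling, 45.3% with quantile normalization, 67.0% with replaced zeros set to 0 and 42.2% without a filter. Against the other exposures, 0 genes stayed 0 under edgeR, thinned reads and the replicate block, and leaving out 1 of the 0.5 mg/L pools gave 0 to 7, the most without 0.5 mg/L pool d. Signs turned for acta1b with quantile normalization (-0.20) and for hbbe1.1 in DESeq2 (-0.0090) and edgeR (-0.033). At 143986 to 443076 reads a pool, the median standard error of a log2 fold change was 0.47 over all tested genes and 0.23 over well-covered ones. Small differences in genes with few reads were therefore not detectable. Well-read genes could miss the threshold too, as did opn1sw1 (mean of 895 reads, log2 fold change -0.49, adjusted p = 0.786 in limma).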
